A study of Mus musculus with 12 samples.

Results

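The mitochondrially encoded genes were taken as every gene of the deposited expression table whose name starts with mt-, with no filter on expression, and numbered 37 of 55414 genes. They comprised 13 mRNAs, 2 rRNAs and 22 tRNAs. Expression was measured by RNA-seq in whole lungs of 12 mice on day 4 after LPS, a part of the bacterial cell wall that causes acute lung injury (ALI) in mice. Of these mice, 6 had the genotype IL-10 B-KO, made by crossing mice with a floxed Il10 gene to mb1-Cre mice, and 6 had the genotype IL-10 B-WT. They are called knockout and control mice here. The mice had a C57BL/6J background, and every lung in the table had been exposed to LPS. The mb1-Cre allele acts in the B lineage, so that Il10 is left intact in the other cells of a knockout lung. Age, sex and the alleles carried by the control mice are not given in the sources used here. The question addressed was how much of each lung's RNA came from the mitochondrial genome, how that amount was divided among the genes, and whether either differed between the genotypes.

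Mitochondria carry a small circular genome that is copied and read apart from the nuclear chromosomes. Its mRNAs encode membrane subunits of respiratory complexes I, III, IV and V, the enzymes that pass electrons from nutrients to oxygen and use the resulting proton gradient to make ATP, and its rRNAs and tRNAs serve the ribosomes that translate these mRNAs inside the organelle. The genes are transcribed as long precursors from both strands and cut apart, mostly at the tRNAs that lie between them. All other subunits, the RNA polymerase and the proteins of the mitochondrial ribosome are encoded in the nucleus and imported. Lung cells differ widely in how many mitochondria they hold, with many in alveolar type 2 cells and in heart muscle around the pulmonary veins, few in neutrophils and none in mature mouse red blood cells.

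The values are TPM, in which a gene's reads are divided by its length and every library is brought to 1 common total. Levels of genes of different length can therefore be set side by side, but those of very short genes are uncertain. The number of reads behind a value is unknown. The columns summed to between 991646 and 994430 TPM, and between 21380 and 24138 genes were above 0 in a library. Il10, the targeted gene, lay between 0 and 0.88 TPM in control lungs and between 0 and 0.58 TPM in knockout lungs, so that it did not separate the genotypes in whole lung. Cd79a, the B cell receptor gene whose locus drives mb1-Cre, was lower in every knockout lung than in every control lung (limma adjusted p = 0.0222). The groups did not overlap for 1.02% of all genes tested. The log2 fold changes of all 8 B cell markers, Cd79a among them, were below 0 (median -2.45). Of these, 7 had an unadjusted p of at most 0.05 and only Cd79a was called, beside 12.5% and 0.495% of all genes tested. Their summed TPM overlapped, at 84.1 to 966.2 in control and 7.71 to 97.0 in knockout lungs. Immunoglobulin genes held 0.25% to 15.4% of the TPM in control and 0.002% to 0.065% in knockout lungs. The lung markers of alveolar type 2, alveolar type 1, ciliated, endothelial and macrophage cells were all above 0 in every lung.

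The mouse nuclear genome holds a stretch of mitochondrial DNA on chromosome 1 that bears on how several of these genes can be read. In GENCODE release M21 on GRCm38 it is annotated as 7 unprocessed pseudogenes between chr1:24611535-24616197, on the minus strand. They match, in the order of the mitochondrial genome, mt-Co1 (Gm29216), mt-Co2 (Gm28661), mt-Atp6 (Gm10925), mt-Co3 (Gm28437), mt-Nd3 (Gm28438), mt-Nd4l (Gm10222) and mt-Nd4 (Gm28439). mt-Atp8, which lies between mt-Co2 and mt-Atp6, has no annotated copy among them. Of the 7, 5 matched the mitochondrial gene at 100% of their aligned bases over 294 to 876 bases, Gm28438 matched mt-Nd3 at 99.7% of 345 bases, and Gm29216 matched the last 483 bases of mt-Co1 at 99.8%. Within the aligned stretch the other 2 copies thus differ from their genes at 1 base each, while the first 9 bases of Gm29216 lie outside its match. The 2 differing bases are shown in capitals in the windows below, written 5′ to 3′ in the direction of the gene. Counted from 1 at the first base of the mitochondrial gene, the substitutions are T3C in mt-Nd3 and A1066T in mt-Co1. The windows lie at chrM:9459-9481 (plus strand), chr1:24613097-24613119 (minus strand), chrM:6390-6413 (plus strand) and chr1:24616165-24616188 (minus strand).
mt-Nd3: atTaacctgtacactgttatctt
Gm28438: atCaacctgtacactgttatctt
mt-Co1: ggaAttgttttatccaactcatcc
Gm29216: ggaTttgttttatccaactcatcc
In the other copies no base inside the match tells the genes apart, and the annotated ends are the remaining difference. The end of mt-Co2 (chrM:7664-7696, plus strand) and of Gm28661 (chr1:24614885-24614914, minus strand) is shown as an example, with the last 3 bases that the annotation of the copy leaves out in capitals.
mt-Co2: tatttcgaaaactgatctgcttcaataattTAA
Gm28661: tatttcgaaaactgatctgcttcaataatt

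A read that lies within the aligned stretch and covers none of these differing bases fits both places of its pair, and RSEM, the program the authors used for counting, divides it between them. The listed TPM of these mitochondrial genes were small next to those of their copies. The mt-Co3 pair had 95.6% to 98.0% of its summed TPM under the copy in the 12 lungs, the mt-Co2 pair 93.6% to 98.6% and the mt-Atp6 pair 87.7% to 94.3%. The division varied more between lungs for mt-Nd4l, with 69.0% to 86.8% under the copy, and for mt-Nd3, with 67.3% to 95.2%. Control replicate 5 was the lowest lung for both of these pairs, and control replicate 1 was the highest for mt-Nd3. The Co1 copy took between 0% and 25.6% of its pair, and was listed at 0 TPM in control replicate 5, at 11.9 TPM in knockout replicate 4 and at 6275 TPM in knockout replicate 1. The mt-Nd4 copy was listed at 0 TPM in all 12 lungs. All of its 876 bases match, but they cover only the first 876 of the 1378 bases of mt-Nd4. The table cannot say how many of these reads came from chromosome 1, and the split of each pair is uncertain. The values of the 6 pairs with a copy above 0 are therefore given both as listed and with the copy added.

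**Figure D1:**
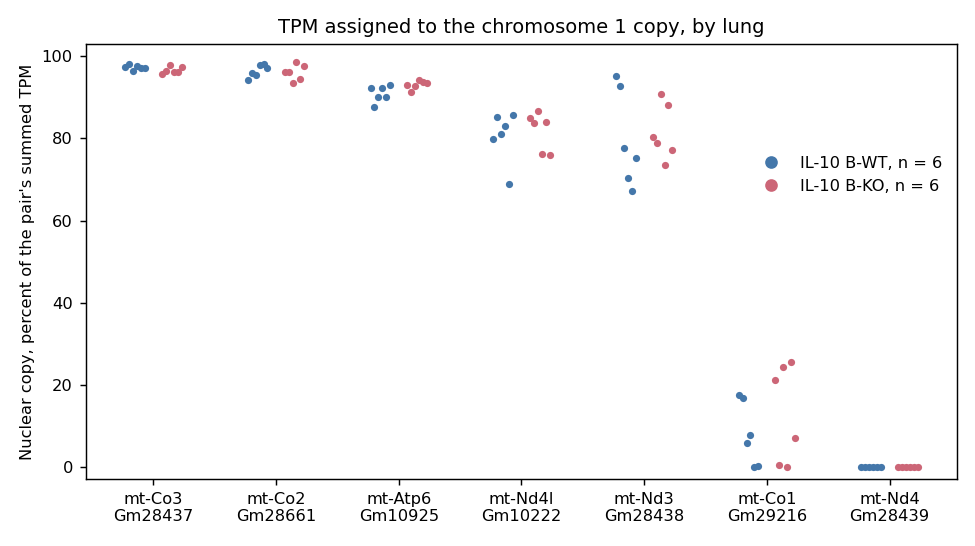
Percent of the summed TPM of each pair that was listed under the chromosome 1 copy (y axis), for the 7 mitochondrial genes with a copy (x axis), with 1 point per lung in control (IL-10 B-WT, blue) and knockout (IL-10 B-KO, red) mice, n = 6 each. The copies of mt-Co3, mt-Co2 and mt-Atp6 held at least 87.7% of their pair in every lung, mt-Nd3 ranged from 67.3% to 95.2%, and the copy of mt-Nd4 was at 0% throughout.

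The mitochondrially encoded genes took a share of the library that varied 6.58-fold among the 12 lungs. In control lungs they held from 5.66% to 30.5% of all TPM, with a median of 11.1%. In knockout lungs they held from 4.63% to 15.8%, with a median of 10.8%. Control replicate 5 stood alone at 30.5%, 1.93 times the next lung, while knockout replicates 5 and 3, at 4.63% and 5.07%, were below every control lung. The means were 12.95% ± 9.11 in control and 10.2% ± 4.93 in knockout lungs (SD, n = 6 each), and the groups overlapped. Without control replicate 5 the control mean was 9.45% ± 3.40 (SD, n = 5), so that the difference between the genotypes changed sign, from -2.75 to 0.76 percentage points. With the copies added, the share ran from 9.63% to 45.3% in control and from 8.01% to 24.9% in knockout lungs, with means of 20.5% ± 13.1 and 16.7% ± 7.37 (SD, n = 6 each). The order of the lungs at the top and bottom was the same with the copies as without them: control replicate 5 had the highest share and knockout replicate 5 the lowest. A large part of the listed share lay in mt-Atp8, which took 28.3% to 40.3% of the mt- mRNA TPM without copies in the 12 lungs. In control replicate 5 it took 37.4%. This gene has 204 bases, and the TPM of so short a gene is uncertain. In whole-lung RNA, fewer cells of a type and less RNA per cell cannot be told apart.

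**Figure D2:**
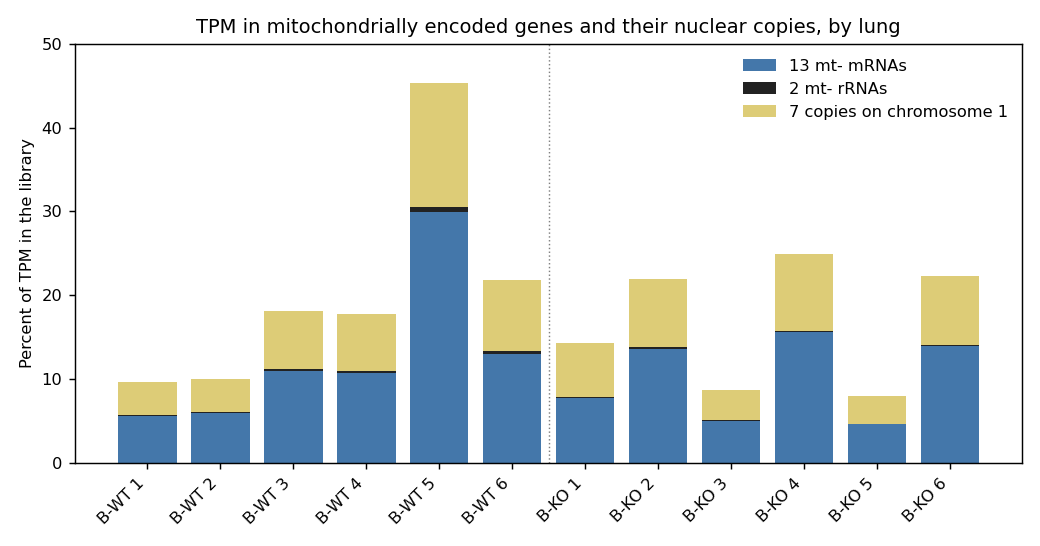
Percent of each library's TPM (y axis) in the 13 mt- mRNAs (blue), the 2 mt- rRNAs (black) and the 7 copies on chromosome 1 (yellow), stacked for each of the 12 lungs (x axis). Control replicate 5 reached 45.3% in all, while the other 11 lungs lay between 8.01% and 24.9%.

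Other measures also stood apart in control replicate 5. Since every library has 1 common total, its large mitochondrial share leaves less TPM for all other genes. Low values of other genes in this lung are therefore not independent of that share. This library had the fewest genes above 0 (21380) and the lowest median of the genes tested, 2.996 on the log2(TPM + 1) scale against 3.59 to 4.02 in the other lungs. Its summed TPM of 7 erythroid markers, hemoglobin genes among them, was 96332, the highest of the 12 lungs, where the other control lungs ranged from 2958 to 76349 and the knockout lungs from 3523 to 22587. Its 8 alveolar type 2 markers summed to 3374 TPM, the lowest, against 9172 to 22290 in the other lungs. The 10 neutrophil markers (392 TPM) and 8 macrophage markers (666.8 TPM) were also lowest there, and reached 7830 TPM in knockout replicate 5 and 11856 TPM in control replicate 1. The 12 cardiomyocyte markers summed to 80.9 to 1903 TPM in control and 32.1 to 520.1 TPM in knockout lungs, with control replicate 4 the highest and replicate 5 next at 1377 TPM, and Sln was the only one of them listed at 0 in any lung. Several marker lists also lay to 1 side between the genotypes. In the lists that follow 0 genes were called, beside 0.495% of all genes tested. An unadjusted p of at most 0.05 was reached by 12.5% of all genes tested. Log2 fold changes were above 0 for 10 of 10 neutrophil markers (7 with an unadjusted p of at most 0.05, summed TPM 392 to 2564 in control and 1174 to 7830 in knockout lungs), 8 of 8 alveolar type 2 markers (6, 3374 to 17828 and 12423 to 22290) and 8 of 8 macrophage markers (4, 666.8 to 11856 and 3449 to 10335). They were below 0 for 8 of 8 endothelial markers (1, 2318 to 5868 and 2324 to 5147), 7 of 7 tested erythroid markers (0) and 11 of 11 tested cardiomyocyte markers (2). Ciliated markers were below 0 for 7 of 8 (0, 290.1 to 834.4 and 169.4 to 766.3). Of 8 alveolar type 1 markers, 3 were above and 5 below 0 (0, 918.5 to 3549 and 1661 to 3005). How far these signs rest on control replicate 5 was not tested. The part of these cell types in the mitochondrial share, and in the differences between genotypes given for its genes, was not tested.

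Complex I, which takes electrons from NADH, contains 7 of the mRNAs, all encoding subunits of its membrane arm. mt-Nd1 (ENSMUSG00000064341, chrM:2751-3707, plus strand), at the junction with the arm that binds NADH, ranged from 4254 to 24521 TPM in control lungs (median 7341) and from 3407 to 9129 TPM in knockout lungs (median 6837). mt-Nd2 (ENSMUSG00000064345, chrM:3914-4951, plus strand), 1 of the proton-pumping subunits, ranged from 2418 to 13601 TPM (median 5553) and from 1642 to 7069 TPM (median 4265). mt-Nd4 (ENSMUSG00000064363, chrM:10167-11544, plus strand), another pumping subunit, ranged from 3741 to 23982 TPM (median 7032) and from 2409 to 8526 TPM (median 5943). In these 3 genes control replicate 5 was the highest and knockout replicate 5 the lowest lung, and without the former lung the highest control values were 9301.5, 6311 and 8961 TPM. mt-Nd5 (ENSMUSG00000064367, chrM:11742-13565, plus strand), the outermost pumping subunit, had the smallest ratio of highest to lowest lung of the 7, 4.95 beside 5.51 for mt-Nd6, and ranged from 1578 to 5100 TPM (median 2670) and from 1030.5 to 3750.3 TPM (median 2543). mt-Nd6 (ENSMUSG00000064368, chrM:13552-14070), the only mRNA on the minus strand, ranged from 1379.6 to 6058 TPM (median 2454) and from 1099.8 to 2941 TPM (median 2321). Its last 14 bases overlap the end of mt-Nd5 on the opposite strand, and the sources used here do not say whether reads were counted by strand. Without strand, reads of mt-Nd6 and of a precursor from the opposite strand cannot be told apart.

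The 2 smallest complex I mRNAs were the most variable members as listed. mt-Nd3 (ENSMUSG00000064360, chrM:9459-9806, plus strand), a subunit beside the quinone site, was at 137.1, 244.5, 1388, 2019, 5445 and 2175 TPM in control replicates 1 to 6 and at 985.4, 1609, 223.9, 2008, 301.6 and 1486 TPM in knockout replicates 1 to 6. The low lungs were control replicates 1 and 2 and knockout replicates 3 and 5, and the highest lung exceeded the lowest 39.7-fold. With Gm28438 added, the range of mt-Nd3 was 2834 to 16658 TPM in control and 2429 to 7600 TPM in knockout lungs, 6.86-fold over all lungs. mt-Nd4l (ENSMUSG00000065947, chrM:9877-10173, plus strand) ranged from 884 to 8218 TPM (median 1591) in control and from 611.8 to 3546 TPM (median 1640) in knockout lungs, 13.4-fold over all lungs. With Gm10222 added, mt-Nd4l ranged from 4380 to 26490 TPM and from 3823 to 15394 TPM, 6.93-fold over all lungs. mt-Nd4l shares its last 7 bases (chrM:10167-10173) with the start of mt-Nd4, and both are translated from 1 mRNA. As listed, the mean of mt-Nd4l was 2529.6 TPM in control lungs beside 9095 TPM for mt-Nd4, and with the copy added that of mt-Nd4l was 11330 TPM.

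mt-Cytb (ENSMUSG00000064370, chrM:14145-15288, plus strand) encodes cytochrome b, the only subunit of complex III that the organelle makes itself. It has no copy among the 7 on chromosome 1. It was at 6413, 6644, 11658, 11897, 27989 and 14285 TPM in control replicates 1 to 6 and at 8431, 15062, 5067, 15191, 4729.8 and 13003 TPM in knockout replicates 1 to 6. These values followed the total closely: relative to the summed mitochondrial mRNAs and copies, mt-Cytb had the smallest SD of the 13 mRNAs, 0.09 on the log2 scale over the 12 lungs, while the total itself had an SD of 0.75 and varied 5.64-fold.

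Complex IV, the oxidase that hands electrons to oxygen, contains 3 of the mRNAs. mt-Co1 (ENSMUSG00000064351, chrM:5328-6872, plus strand), the catalytic subunit with the heme and copper centre, ranged from 15815 to 65721 TPM in control (median 30265) and from 11777 to 44420 TPM in knockout lungs (median 29164). With Gm29216 added, the ranges were 19031 to 65721 TPM and 15835 to 44432 TPM. mt-Co2 (ENSMUSG00000064354, chrM:7013-7696, plus strand), which accepts electrons from cytochrome c, ranged from 438.6 to 1125 TPM (median 764.3) and from 455.6 to 1037 TPM (median 710.3). mt-Co3 (ENSMUSG00000064358, chrM:8607-9390, plus strand), the third core subunit, ranged from 193.7 to 1008 TPM (median 545.1) and from 162.2 to 941.0 TPM (median 640.2). As listed, mt-Co2 and mt-Co3 were thus far below mt-Co1 in every lung. With Gm28661 added, mt-Co2 ranged from 11487 to 49801 TPM in control and from 11127 to 32779 TPM in knockout lungs. With Gm28437 added, mt-Co3 ranged from 9603 to 35036 TPM and from 7681 to 25160.0 TPM. mt-Co2 was also the only 1 of the 15 expressed members that was not highest in control replicate 5 as listed, where it was at 874.5 TPM beside 1125 TPM in control replicate 3, and with the copy added control replicate 5 was the highest here too.

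Complex V, the ATP synthase, contains 2 of the mRNAs, which lie in 1 transcript and share 43 bases (chrM:7927-7969, plus strand). The shared stretch is shown with the start codon of mt-Atp6 in capitals, since a short read that falls within it belongs to both genes.
mt-Atp8 and mt-Atp6: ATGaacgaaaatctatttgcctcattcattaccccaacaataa
mt-Atp8 (ENSMUSG00000064356, chrM:7766-7969, plus strand), a short stator subunit of 204 coding bases, had the highest median of all members, 34687 TPM in control (range 15690 to 111430) and 34704 TPM in knockout lungs (range 16995 to 58465). Control replicate 5 was again the highest lung, at 1.91 times the next. mt-Atp6 (ENSMUSG00000064357, chrM:7927-8607, plus strand), which forms part of the proton channel, ranged from 642.5 to 3899.9 TPM (median 1219.5) and from 419.6 to 1401 TPM (median 996.7). With Gm10925 added, it ranged from 7564 to 38968 TPM and from 6590 to 18241 TPM, which was still below mt-Atp8 in each of the 12 lungs. Both genes lie in 1 transcript, so this gap cannot be read as a difference in RNA level. The TPM of a gene as short as mt-Atp8 is uncertain.

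The 2 rRNAs form the core of the mitochondrial ribosome. Whether poly(A) RNA was selected or rRNA was removed is not given in the sources used here. mt-Rnr1 (ENSMUSG00000064337, chrM:70-1024, plus strand), the RNA of the small ribosomal subunit, ranged from 413.6 to 3021 TPM in control lungs (median 1135) and from 302.4 to 1114 TPM in knockout lungs (median 852.8). mt-Rnr2 (ENSMUSG00000064339, chrM:1094-2675, plus strand), the RNA of the large subunit, ranged from 299.1 to 2236 TPM (median 808.8) and from 178.8 to 884.2 TPM (median 591.5). The highest lung was control replicate 5 and the lowest knockout replicate 3 for both. The ratio of mt-Rnr1 to mt-Rnr2 stayed between 1.17 and 1.69 in the 12 lungs, with means of 1.41 ± 0.11 in control and 1.41 ± 0.18 in knockout lungs (SD, n = 6 each). Per TPM of mitochondrial mRNA and copies, the rRNAs amounted to 0.75% to 1.49% in control and 0.56% to 1.06% in knockout lungs, with means of 1.09% ± 0.27 and 0.79% ± 0.18 (SD, n = 6 each), and the groups overlapped.

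The 22 tRNAs, 14 on the plus and 8 on the minus strand, were listed at 0 TPM in all 12 lungs. They are 59 to 75 bases long, and the shortest, mt-Ts2 (serine, chrM:11613-11671, plus strand), and the longest, mt-Tl1 (leucine, chrM:2676-2750, plus strand), are shown to give their scale next to the mRNAs.
mt-Ts2: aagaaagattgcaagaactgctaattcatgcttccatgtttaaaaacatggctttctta
mt-Tl1: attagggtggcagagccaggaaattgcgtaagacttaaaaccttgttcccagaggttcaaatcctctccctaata
Of 780 other genes of the table that are no longer than 75 bases, 2 were above 0 TPM in any lung, so that a value of 0 was the rule at this length. The table thus holds no usable measurement of the mitochondrial tRNAs.

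**Figure D3:**
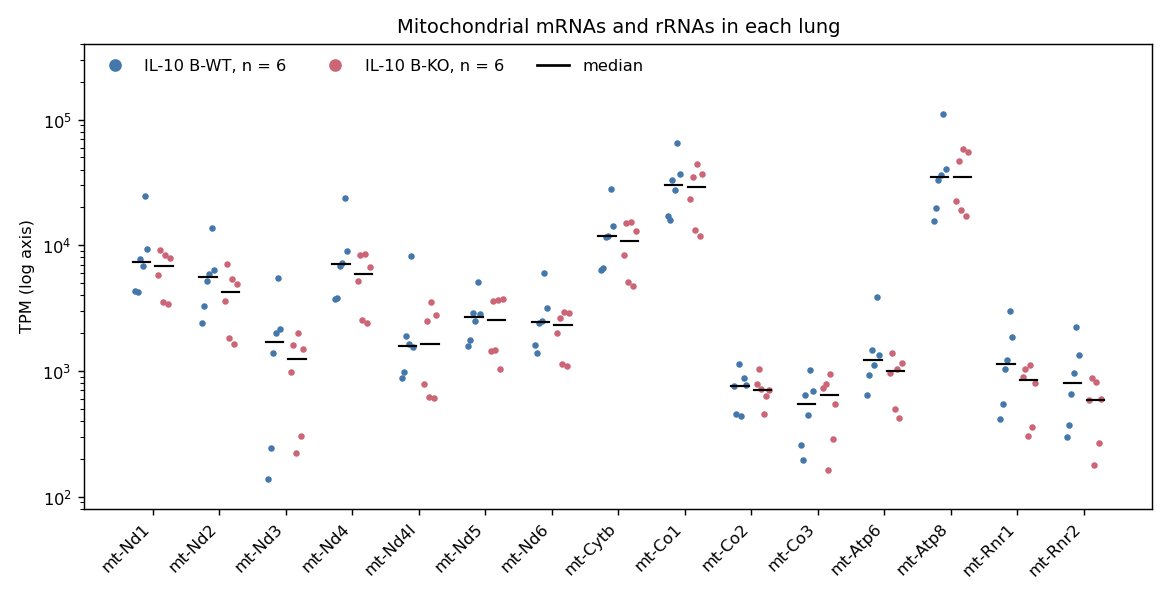
TPM (y axis, log scale) of the 13 mitochondrial mRNAs and 2 rRNAs as listed (x axis), with 1 point per lung in control (IL-10 B-WT, blue) and knockout (IL-10 B-KO, red) mice, n = 6 each, and a bar at each median. mt-Atp8 and mt-Co1 were highest, mt-Co2 and mt-Co3 were lowest among the mRNAs by median, mt-Nd3 had the widest range, and the 2 genotypes overlapped for every gene.

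The genotypes were compared gene by gene with limma on log2(TPM + 1) over 15148 genes with at least 1 TPM in at least 6 lungs, where a gene was called at an adjusted p (Benjamini-Hochberg) no higher than 0.05 together with a log2 fold change of 1 or more in either direction. All 15 expressed mitochondrial genes entered this test and the 22 tRNAs did not. Of the 15, 0 were called, where 0.495% of all genes tested, or 75 genes, were called. That background count was not stable: it ran from 19 without knockout replicate 1 or 5 to 604 without control replicate 1, and moved by over 1.5 times without control replicates 4, 5 and 6 or knockout replicates 2, 3 and 6 as well, while 0 of the 15 were called with any 1 lung left out. Without adjustment and without a minimum fold change, 0 of the 15 passed a p of 0.05, against 12.5% of all genes tested. The groups overlapped for each of the 15, where they did not overlap for 1.02% of all genes tested. In the two-sided exact permutation test over 6 lungs against 6, 0 of the 15 had a p of at most 0.05, and the smallest p this design can give is 0.00216.

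Log2 fold changes of knockout over control lungs were below 0 for 13 and above 0 for 2 of the 15 genes, with a median of -0.37, where the median of all genes tested was 0.10. These signs did not rest on every lung alike, since without control replicate 5 they were below 0 for 10 of the 15, with a median of -0.07, and with each library centred on its median they were below 0 for all 15. mt-Atp6 had the lowest p of the 15 as listed. Its mean was 1562 ± 1181 TPM in control and 911.2 ± 382.0 TPM in knockout lungs (SD, n = 6 each), or -0.65 ± 0.41 as a log2 fold change with its standard error (limma adjusted p = 0.506, exact permutation p = 0.184). With Gm10925 added the log2 fold change came to -0.27 ± 0.43 (SE, limma adjusted p = 0.791). The rRNAs had the lowest log2 fold changes, both -0.69. Their means were 1349 ± 967.7 and 752.3 ± 344.1 TPM for mt-Rnr1 (limma adjusted p = 0.542) and 976.6 ± 727.4 and 554.2 ± 283.8 TPM for mt-Rnr2 (limma adjusted p = 0.566, SD, n = 6 each). These differences were smaller than the SD within the control lungs.

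The complex I genes had log2 fold changes of -0.41 for mt-Nd1, -0.56 for mt-Nd2, -0.30 for mt-Nd3, -0.55 for mt-Nd4, -0.37 for mt-Nd4l, -0.24 for mt-Nd5 and -0.37 for mt-Nd6, with limma adjusted p-values between 0.592 and 0.893. With the copies added, those of mt-Nd3 and mt-Nd4l were -0.39 and -0.28. mt-Cytb was at 13147 ± 7912 and 10247 ± 4812 TPM (SD, n = 6 each), or -0.33 on the log2 scale (limma adjusted p = 0.744). In complex IV, mt-Co1 had a log2 fold change of -0.26, mt-Co2 of 0.00 and mt-Co3 of 0.08, with limma adjusted p-values between 0.816 and 0.996. With the copies added, these were -0.17, -0.13 and -0.20. The sign for mt-Co3 thus depended on the copy, and mt-Co1 had a log2 fold change of 0.14 after quantile normalization. mt-Atp8 was at 42834 ± 34976 TPM in control and 36590 ± 19186 TPM in knockout lungs (SD, n = 6 each), so that its log2 fold change came to -0.10 ± 0.51 (SE, limma adjusted p = 0.942), which was 0.24 without control replicate 5. The 95% intervals show what sizes these data leave possible. That of mt-Co2 was the narrowest, from -0.56 to 0.57, and that of mt-Nd3 the widest, from -2.17 to 1.57 as listed. That of mt-Co3 ran from -0.97 to 1.12, past a log2 fold change of 1 on the upper side, and the other 13 reached below -1. A change of that size was thus not distinguishable from none for 14 of the 15 genes as listed, and the interval of mt-Co2 also passed -1 with its copy added, from -1.03 to 0.77.

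**Figure D4:**
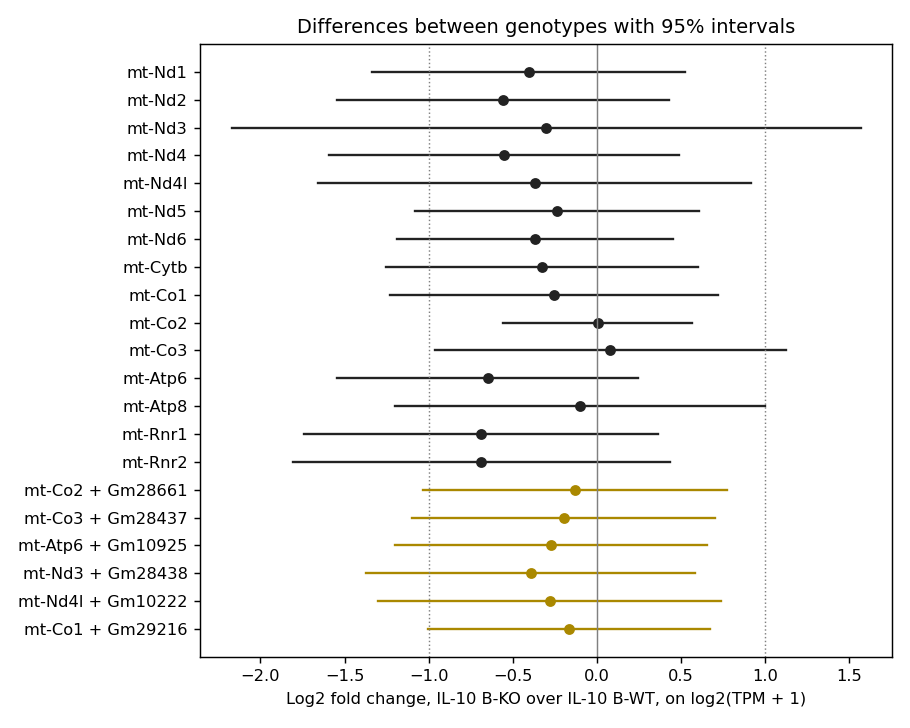
Log2 fold change of knockout (IL-10 B-KO) over control (IL-10 B-WT) lungs on the log2(TPM + 1) scale (x axis), with the 95% interval from limma, for the 15 expressed mitochondrial genes as listed (black) and for the 6 pairs with their copies added (gold), n = 6 lungs per genotype. Dotted lines mark a log2 fold change of -1 and 1, and every interval crosses 0.

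Since nearly all members moved with the total, the balance among them was described as a percent of the summed TPM of the 13 mRNAs and their copies. Complex IV held the largest part, 33.8% to 45.8% in control and 38.8% to 47.9% in knockout lungs. Complex V held 25.4% to 33.8% and 25.8% to 33.3%. Complex I held 22.0% to 26.1% in control lungs, and 20.1% to 20.9% in 5 knockout lungs with 25.0% in knockout replicate 2. The means of complex I were 23.9% ± 1.42 and 21.2% ± 1.88 (SD, n = 6 each), a difference of -2.73 percentage points, and all knockout lungs but replicate 2 lay under the whole control group. Complex III, which is mt-Cytb alone, showed the same lungs apart, with 6.28% to 6.82% in control lungs and 5.92% to 6.19% in 5 knockout lungs, but 6.99% in knockout replicate 2, the highest of all. The differences of the means were -0.46 points for complex III, 1.66 for complex IV and 1.53 for complex V, and that of complex V was -0.21 points without mt-Atp8, mt-Nd3 and mt-Nd4l. Without control replicate 5 the difference of complex IV was 0.22 points. In the same lungs the neutrophil, macrophage and alveolar type 2 marker sums had higher medians in knockout lungs, and the sums of the other marker lists lower ones. Knockout replicate 2 had the lowest neutrophil sum (1174 TPM), the lowest macrophage sum (3449 TPM) and the highest B cell sum (97.0 TPM) of the knockout lungs. Its endothelial (5147 TPM), ciliated (766.3 TPM) and erythroid (22587 TPM) sums were also the highest of the knockout lungs. Its alveolar type 2 sum (19030 TPM) was above the knockout median (17171 TPM). Knockout replicate 1 had the next lowest neutrophil sum (1459 TPM), with complex I at 20.2%. Knockout replicate 6 had the next highest B cell sum of the knockout lungs (65.8 TPM), with complex I at 20.1%. Control replicate 1 had the highest macrophage sum (11856 TPM), with complex I at 22.0%. The part of these cells in the balance was not tested. Since the members were chosen with earlier results of these data known, no test was made of these shares.

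Within complex I, mt-Nd4 and mt-Nd2 had the larger shifts. mt-Nd4 took 3.82% to 5.39% of the mitochondrial mRNA in control and 2.98% to 3.90% in knockout lungs, and 5 of 6 knockout lungs lay under the whole control group. mt-Nd2 took 2.55% to 3.41% and 2.08% to 3.28%, with 4 of 6 knockout lungs under all control lungs. mt-Nd5, encoded farther along the same strand, took 1.496% ± 0.24 in control and 1.49% ± 0.28 in knockout lungs (SD, n = 6 each). mt-Nd6, from the other strand, took 1.46% ± 0.13 and 1.32% ± 0.09 (SD, n = 6 each), with overlap. Counted from the listed values alone, without copies, complex I held 26.0% to 29.2% in control and 22.0% to 25.9% in knockout lungs. The groups thus just did not overlap, as was the case for 1.02% of all genes tested. The difference of the means was -3.29 points. Complexes III, IV and V overlapped as listed. Complex I overlapped with the copies added, and the split that the listed values rest on is uncertain. The difference of complex I kept its sign with each lung left out in turn, between -3.49 and -2.28 points with the copies added.

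**Figure D5:**
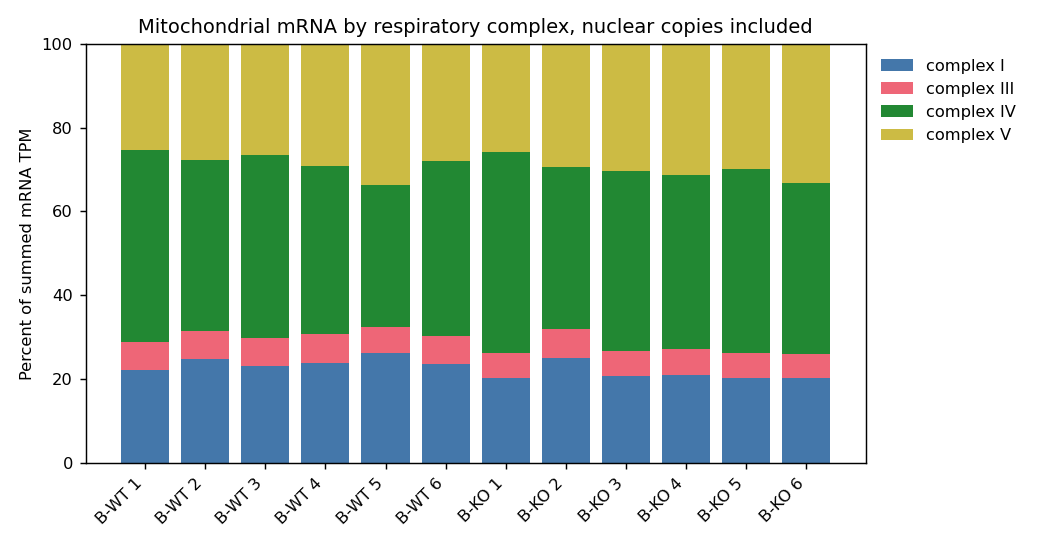
Percent of the summed TPM of the 13 mitochondrial mRNAs and their chromosome 1 copies (y axis) held by the mRNAs of complexes I (blue), III (red), IV (green) and V (yellow) in each lung (x axis). Complex I lay between 22.0% and 26.1% in control lungs and between 20.1% and 20.9% in 5 of the 6 knockout lungs, with knockout replicate 2 at 25.0%.

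Adding the copies also narrowed the variation of their genes relative to the total. The SD of log2 TPM relative to the summed mRNAs fell from 0.99 to 0.17 for mt-Nd3, from 0.77 to 0.12 for mt-Co2, from 0.48 to 0.25 for mt-Nd4l, from 0.44 to 0.15 for mt-Co3 and from 0.33 to 0.11 for mt-Atp6 over the 12 lungs. For mt-Co1 it went from 0.11 to 0.16. The total included the copies in both cases. The 6 mRNAs without a copy had SDs from 0.09 for mt-Cytb to 0.26 for mt-Nd2, so that the 5 genes came into that range with their copies and were above it without them.

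The nuclear genes that serve the mitochondrial genome were described from lists chosen by hand, to be read beside the 0.495% of all genes that were called and the 12.5% that had an unadjusted p of at most 0.05. Of 23 tested genes for mitochondrial transcription and DNA maintenance, 0 were called and 0 passed an unadjusted p of 0.05. The log2 fold changes were above 0 for 17 and below 0 for 6, with a median of 0.15, from Slc25a33, a pyrimidine nucleotide carrier, at -0.37 to Dna2, a nuclease and helicase, at 0.67. Of 41 tested genes for RNA processing, stability and modification, 0 were called, 34 were above 0 and the median was 0.18. Ddx28, a helicase of ribosome assembly, was the only gene of this list to pass an unadjusted p of 0.05, with 5.32 ± 1.84 TPM in control and 8.32 ± 2.73 TPM in knockout lungs (SD, n = 6 each, log2 fold change 0.56, limma adjusted p = 0.378), and Rpusd3, a pseudouridine synthase, had the lowest log2 fold change at -0.45. Of 16 nuclear regulators 11 were tested, 0 were called and 0 passed an unadjusted p of 0.05, with a median of 0.10, from Sirt1 at -0.20 to Myc at 0.55. All these medians stood beside 0.10 for all genes tested.

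The imported partners of the mitochondrial proteins gave the same count of 0 calls. Of 104 tested nuclear genes of oxidative phosphorylation, subunits and assembly factors with the same name stems, log2 fold changes were above 0 for 95, with a median of 0.26, and 10 were higher and 2 lower at an unadjusted p of at most 0.05, which is 12 of 104 where 12.5% of all genes passed. Ndufa4l2, an NDUFA4-like protein induced by hypoxia, was at 62.2, 95.6, 55.7, 161.4, 193.6 and 175.6 TPM in control replicates 1 to 6 and at 29.7, 42.6, 32.7, 71.3, 29.2 and 17.6 TPM in knockout replicates 1 to 6. It had the lowest log2 fold change of the list, -1.67 ± 0.37 (SE, limma adjusted p = 0.0719), and 5 of 6 knockout lungs lay under all control lungs. Atp5md, a small subunit of the ATP synthase, had the highest, 0.62 (limma adjusted p = 0.351). Of 78 mitochondrial ribosomal protein genes, 76 had a log2 fold change above 0, with a median of 0.25, from Mrps12 at -0.18 to Mrpl23 at 0.70, and 7 passed an unadjusted p of 0.05. Control replicate 5, whose library was most occupied by mitochondrial RNA, had the lowest summed TPM of each of these 5 nuclear lists. Without it, the median log2 fold change was 0.14 for the oxidative phosphorylation genes (84 of 104 above 0), 0.11 for the ribosomal protein genes (67 of 78), 0.04 for RNA processing (25 of 41), -0.03 for transcription and DNA maintenance (8 of 23) and -0.02 for the regulators (4 of 11), beside -0.02 for all genes tested. The counts above 0 for the last 2 of these lists thus rested on that 1 lung. With median centring of all libraries, which moved the median of all genes to -0.01, the 5 medians in the same order were 0.16, 0.14, 0.08, 0.05 and -0.01.

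The nuclear oxidative phosphorylation genes did not vary as the mitochondrial ones did. They took 0.81% to 1.53% of the TPM in control and 1.32% to 1.76% in knockout lungs, a 2.16-fold range over the 12 lungs. Of the TPM outside the mitochondrial genes and their copies, they took 1.64% ± 0.16 in control and 1.87% ± 0.11 in knockout lungs (SD, n = 6 each), and control replicate 5, at 1.49%, was within the range of the other control lungs. Mitochondrial mRNA and copies amounted to 6.33 to 55.0 TPM for each TPM of these nuclear genes in control lungs (median 12.1) and to 4.53 to 16.8 in knockout lungs (median 12.0). Outside control replicate 5, the highest value was 16.8 in knockout replicate 4. The amount of mitochondrial mRNA per nuclear subunit mRNA thus differed 12.1-fold between lungs of the same treatment, with medians that lay close together in the 2 genotypes.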

How the data were processed

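RNA was extracted from 12 lungs and sequenced with Illumina chemistry. The authors deposited 1 table of TPM per gene, calculated with RSEM, 1 column per lung without pooling and rounded to 2 decimals. The submitters' processing notes also name fastp, HISAT and GRCm38.p5, and their versions are not given in the sources used here. TPM keep no depth, so that precision rests on the 6 lungs per genotype, and 0 columns were left unused. No 2 libraries were identical (0 pairs). Nothing says how mice were divided among cages or runs, and no batch is labelled.

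The members and lists were chosen with earlier results of these data known. Differences were calculated with limma 3.58.1 in R 4.3.3 (trend, genotype only) on log2(TPM + 1), which understates changes of low genes, over genes with at least 1 TPM in at least 6 libraries. Python 3.11.15 was used with SciPy 1.17.1 for permutation tests, NumPy 2.4.6 and pandas 2.3.3 for the shares and matplotlib 3.10.9 for the plots. The method was checked on simulated data. Copies were found with BLAST 2.17.0 (megablast of the mitochondrial transcripts against nuclear transcripts, at least 95% identity over 100 bases). Coordinates and sequences are from GENCODE M21 on GRCm38, which matched 52081 of 55414 genes. Named were all expressed members, copies with a mean of at least 1 TPM or on chromosome 1, and the highest and lowest log2 fold change of each nuclear list. As alternatives, 0.1 was added in place of 1, the filter was dropped or set at a mean of 5 TPM, and the fit was repeated with 4 other scalings, array weights, a replicate block and each lung left out. After the data were seen, fits with copies added and with control replicate 1 and knockout replicate 2 left out together were included. Leaving out each of these lungs alone raised the genes called from 75 to 604 and 116. Knockout replicate 2 was also the knockout lung with complex I at 25.0%, so the fit without both lungs is a selective one.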

Additional observations from a re-analysis of the deposited data

Results flagged for a closer look

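Among 56 sets of 6 values, 12 held a lung far from its group by Dixon's test, made on values without a log scale. Chance alone gives such a lung in about 1 of 20 sets if the values are normally distributed, which was not checked. How many sets would hold such a lung on a log scale was not tested. The sets are not independent, since all members of a library share its total. Of the 12, 10 were control replicate 5. It held 24521 TPM of mt-Nd1, 13601 TPM of mt-Nd2, 111430 TPM of mt-Atp8, 3899.9 TPM of mt-Atp6, 8218 TPM of mt-Nd4l, 23982 TPM of mt-Nd4 and 27989 TPM of mt-Cytb. Its share of TPM in mitochondrially encoded genes was 30.5%, and its mitochondrial mRNA and copies amounted to 55.0 TPM per TPM of nuclear oxidative phosphorylation genes. The copy of mt-Nd4l took 69.0% of its pair in this lung, the lowest of the group. The remaining 2 were knockout replicate 2, in which complex I held 25.0% and complex III 6.99% of the mitochondrial mRNA, both above the other knockout lungs.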

How the results depend on the processing

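The number of mitochondrial genes past the threshold was 0 under every alternative run, and the lowest adjusted p of any member was 0.115 (mt-Atp6 without control replicate 1 and knockout replicate 2, where mt-Rnr1, mt-Rnr2, mt-Nd2 and mt-Atp6 had an unadjusted p of at most 0.05). Of 345 pairs of a member and an alternative, 313 kept the sign of the log2 fold change and 32 reversed it. mt-Co2 (0.00 as reported) was -0.052 with rescaling without immunoglobulin genes, -0.047 without mt- genes, -0.21 with quantile normalization, -0.10 with median centring, -0.20 with array weights, -0.088 without both lungs named, -0.13 with the copies added and -0.13 to 0.14 with each lung left out. mt-Co3 was -0.16, -0.030, -0.23 and -0.20 with quantile normalization, median centring, both lungs left out and copies added, and -0.17 to 0.40 with each lung left out. mt-Atp8 was 0.42 with quantile normalization, 0.18 with array weights and -0.33 to 0.24 with each lung left out. mt-Co1 was 0.14 with quantile normalization, mt-Nd4l 0.073 with array weights and -0.64 to 0.066 with each lung left out, and mt-Nd3 -0.88 to 0.18 with each lung left out. The cause was not tested. The difference in the share of TPM ran from -4.21 to 0.76 points over its 15 alternatives. Those of the complexes ran from -3.49 to -2.28 points for complex I, -0.62 to -0.41 for III, 0.22 to 3.49 for IV and -0.21 to 3.52 for V (15 alternatives each). All lay within 1 SD of single lungs of the reported value, which is a wide measure for a difference of means. Complex V reversed its sign in 1 alternative, and complex IV fell from 1.66 to 0.22 points at the lowest.

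Over all genes, 75 were called, 6 without the filter, 39 with quantile normalization, 36 with median centring, 318 with array weights, 1492 without both lungs named and 19 to 604 with each lung left out (604 without control replicate 1, 19 without knockout replicate 1 or 5). Among the genes of the 5 nuclear lists together 0 were called, 0 to 2 with each lung left out (2 without control replicate 1, 1 without knockout replicate 4) and 3 without both lungs. With the replicate number as a block 45 genes were called over all genes and 0 mitochondrial ones. Lungs with the same number did not deviate together (r from -0.292 to 0.0458), so that the numbers do not pair the lungs. The depth is unknown, the split between genes and copies is uncertain, and genes as short as the tRNAs were nearly all listed at 0.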

Other observations

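Matches to mitochondrial genes outside chromosome 1 were close to 0 in these lungs. Gm13340 on chromosome 2 matches all 1545 bases of mt-Co1 at 97.6%, and Gm13341 beside it matches mt-Co2 at 95.9%. Gm13339 on chromosome 2 matches mt-Nd2 at 96.7% of 510 bases and Gm4076 on chromosome 13 matches mt-Nd5 at 95.2%. The 4 pseudogenes were at 1.21 TPM or less in every lung, where the lowest value of their 4 mitochondrial genes was 438.6 TPM (mt-Co2). They were singled out after their values were seen.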
